A study of Mus musculus with 2 samples.

Results

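The 8 genes described here encode secreted proteins that act on Wnt signalling outside the cell: Sfrp1, Sfrp2, Sfrp4, Frzb, Wif1, Dkk2, Dkk3 and Wisp2. They were chosen by name, and all 8 were found among the 27998 genes of the count tables. Single-cell RNA was measured in injured carotid arteries of male C57BL/6J mice, 8 weeks of age, harvested 28 days (4 weeks) or 14 days (2 weeks) after injury. Both groups had the same operation: a guide wire was drawn through the artery to strip its endothelium, and the external carotid artery was tied off, a model of intimal hyperplasia in which the wall thickens from the inside. Per the labels' protocols the adventitia, the outer layer, was dissected from the inner layers, tissue was digested with papain, and live cells positive for the DNA dye Hoechst were sorted. The design text states n = 18 for either time, but each time is 1 library and no cell can be traced to an animal. No uninjured artery was analysed here, and the labels name the vessel in conflicting ways (carotid artery, aortic graft, left and right side).

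Wnt ligands are secreted lipid-modified proteins that bind Frizzled receptors together with the co-receptors Lrp5 and Lrp6 and so stabilise beta-catenin, which acts with TCF and LEF factors on target genes. Secreted modulators set how much ligand reaches the receptor: Frizzled-related proteins and Wif1 bind the ligands, and Dickkopf proteins such as Dkk2 bind the co-receptors. In the artery wall, Wnt signals are known to act on the growth and migration of smooth muscle cells and on the activation of adventitial fibroblasts.

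The libraries listed 8565 barcodes and 83753250 UMIs, the molecular tags by which transcripts are counted, at 4 weeks and 5864 barcodes and 78773018 UMIs at 2 weeks. After filtering, 7422 cells at 4 weeks and 5152 cells at 2 weeks remained, with medians of 8710 and 11775.5 UMIs. A total of 8 barcode sequences were listed in both libraries, of which 6 were kept at 4 weeks and 8 at 2 weeks. Cells fell into 30 clusters, and 25 of these carried the markers of 13 cell classes. Fibroblast-like cells made up 43.5% of cells at 4 weeks (3230 cells, 95% interval 42.4 to 44.7) and 23.5% at 2 weeks (1213 cells, 22.4 to 24.7). Their median depth was 12414 UMIs at 4 weeks and 20641 UMIs at 2 weeks. Smooth muscle cell-like cells numbered 75 at 4 weeks and 224 at 2 weeks. Cells of other organs were also present: thymocyte-like (587 at 4 weeks and 920 at 2 weeks), parathyroid cell-like (15 and 54) and epithelial or thyroid cell-like (1 and 25). Which fibroblast-like cells came from the artery wall was not tested. Clusters were built without the 8 genes and without the other Wnt genes. All intervals below are 95% intervals and cover counting error only, and with 1 library per time no difference has a replicate check or a test.

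All 8 are protein-coding genes at separate positions in mm10 (GENCODE M21). The Frizzled-related genes are Sfrp1 (chr8:23411502-23449632, plus strand), Sfrp2 (chr3:83766321-83774316, plus), Sfrp4 (chr13:19623104-19632994, plus) and Frzb (chr2:80411970-80447625, minus). Wif1 lies at chr10:121033960-121100650 (plus), Dkk2 at chr3:132085292-132180304 (plus), Dkk3 at chr7:112116017-112159057 (minus) and Wisp2, listed as Ccn5, at chr2:163820861-163833146 (plus). Sfrp2 overlaps the antisense gene Gm26771. Whether counting used strand is not given in the sources used here, so reads of these overlapping genes may not be told apart.

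Promoter sequences (RefSeq, GRCm38.p6) were matched for 4 of the 8 genes: Sfrp2, Frzb, Wif1 and Dkk2. They span 250 bases before the RefSeq gene start and 50 bases after it. Those of Dkk2, Frzb and Wif1 are shown because these genes carry the differences described below: Dkk2 was lower at 4 weeks within several fibroblast-like clusters, and Frzb and Wif1 were highest in the same fibroblast-like cluster and in smooth muscle cell-like cells. The windows are Dkk2 at chr3:132085042-132085341 (plus), Frzb at chr2:80447347-80447646 (minus) and Wif1 at chr10:121033754-121034053 (plus). Those of Frzb and Wif1 rest on other gene starts than the GENCODE positions above. Most of the Frzb window, with its marked match, lies inside the gene as GENCODE places it. Capitals mark matches, on either strand, to CTTTG, the core of the site bound by TCF and LEF factors, and to TATAAA, the TATA box.
Dkk2: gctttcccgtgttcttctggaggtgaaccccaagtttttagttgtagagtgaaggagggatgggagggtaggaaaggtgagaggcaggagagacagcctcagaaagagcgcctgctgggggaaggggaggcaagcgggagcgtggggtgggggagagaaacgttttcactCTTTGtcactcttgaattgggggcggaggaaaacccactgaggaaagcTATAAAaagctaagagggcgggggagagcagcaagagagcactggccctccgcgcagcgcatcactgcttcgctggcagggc
Frzb: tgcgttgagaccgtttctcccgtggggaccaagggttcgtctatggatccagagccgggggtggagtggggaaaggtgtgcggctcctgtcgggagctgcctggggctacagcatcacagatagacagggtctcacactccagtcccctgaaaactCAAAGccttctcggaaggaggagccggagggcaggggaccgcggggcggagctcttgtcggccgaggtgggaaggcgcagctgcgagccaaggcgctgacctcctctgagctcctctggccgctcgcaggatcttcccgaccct
Wif1: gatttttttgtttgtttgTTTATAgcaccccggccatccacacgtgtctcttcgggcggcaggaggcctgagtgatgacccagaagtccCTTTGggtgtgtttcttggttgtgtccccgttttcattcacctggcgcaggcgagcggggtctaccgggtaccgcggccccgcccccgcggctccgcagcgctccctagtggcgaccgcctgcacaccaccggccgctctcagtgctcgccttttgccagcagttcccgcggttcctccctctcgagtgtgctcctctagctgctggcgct
Counted from 1 at the 5′ end, CTTTG matched once in each of the 3 windows, at base 171 in Dkk2, base 157 in Frzb and base 90 in Wif1. TATAAA matched in Dkk2 at base 219 and in Wif1 at base 19, and no match overlapped another. The Sfrp2 window held 0 matches to either. Of 32851 promoter windows of the same length, 53.9% held CTTTG and 13.6% held TATAAA. The CArG box, the site of serum response factor known from contractile genes, had 0 matches in the windows of all 4 genes and was found in 1.63% of all windows. A match describes letters only.

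The cell source differed between the genes. Fibroblast-like cells held nearly all UMIs of Sfrp1 (98.1% at 4 weeks and 98.1% at 2 weeks), Sfrp2 (98.6% and 96.4%), Sfrp4 (98.9% and 98.3%) and Dkk2 (98.6% at 4 weeks and 98.7% at 2 weeks). For Wisp2 this share was 97.2% at 4 weeks and 82.8% at 2 weeks, for Dkk3 91.3% and 77.5%, and for Frzb 77.3% and 63.5%. Wif1 stood apart, with 17.3% of its UMIs in 4-week and 27.4% in 2-week fibroblast-like cells. Smooth muscle cell-like cells held 80.9% of Wif1 UMIs at 4 weeks and 69.5% at 2 weeks.

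Scaled to the UMIs of each class as CPM, the usual unit for counts relative to a fixed total, Sfrp1, Sfrp2, Sfrp4 and Dkk2 were highest in fibroblast-like cells at both times among the classes with at least 50 cells in a library. Frzb, Wif1 and Dkk3 were highest in smooth muscle cell-like cells at both times. Wisp2 was highest in fibroblast-like cells at 4 weeks, at 113 CPM (110 to 116) against 65.8 CPM (50.2 to 84.7) in smooth muscle cell-like cells. At 2 weeks that order was the other way round, with 109 CPM (105 to 113) in fibroblast-like and 151 CPM (138 to 165) in smooth muscle cell-like cells. Dkk2 had 0 UMIs in 911795 UMIs of smooth muscle cell-like cells at 4 weeks, which allows up to 3.29 CPM, and 4 UMIs in 3340501 at 2 weeks.

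**Figure D1:**
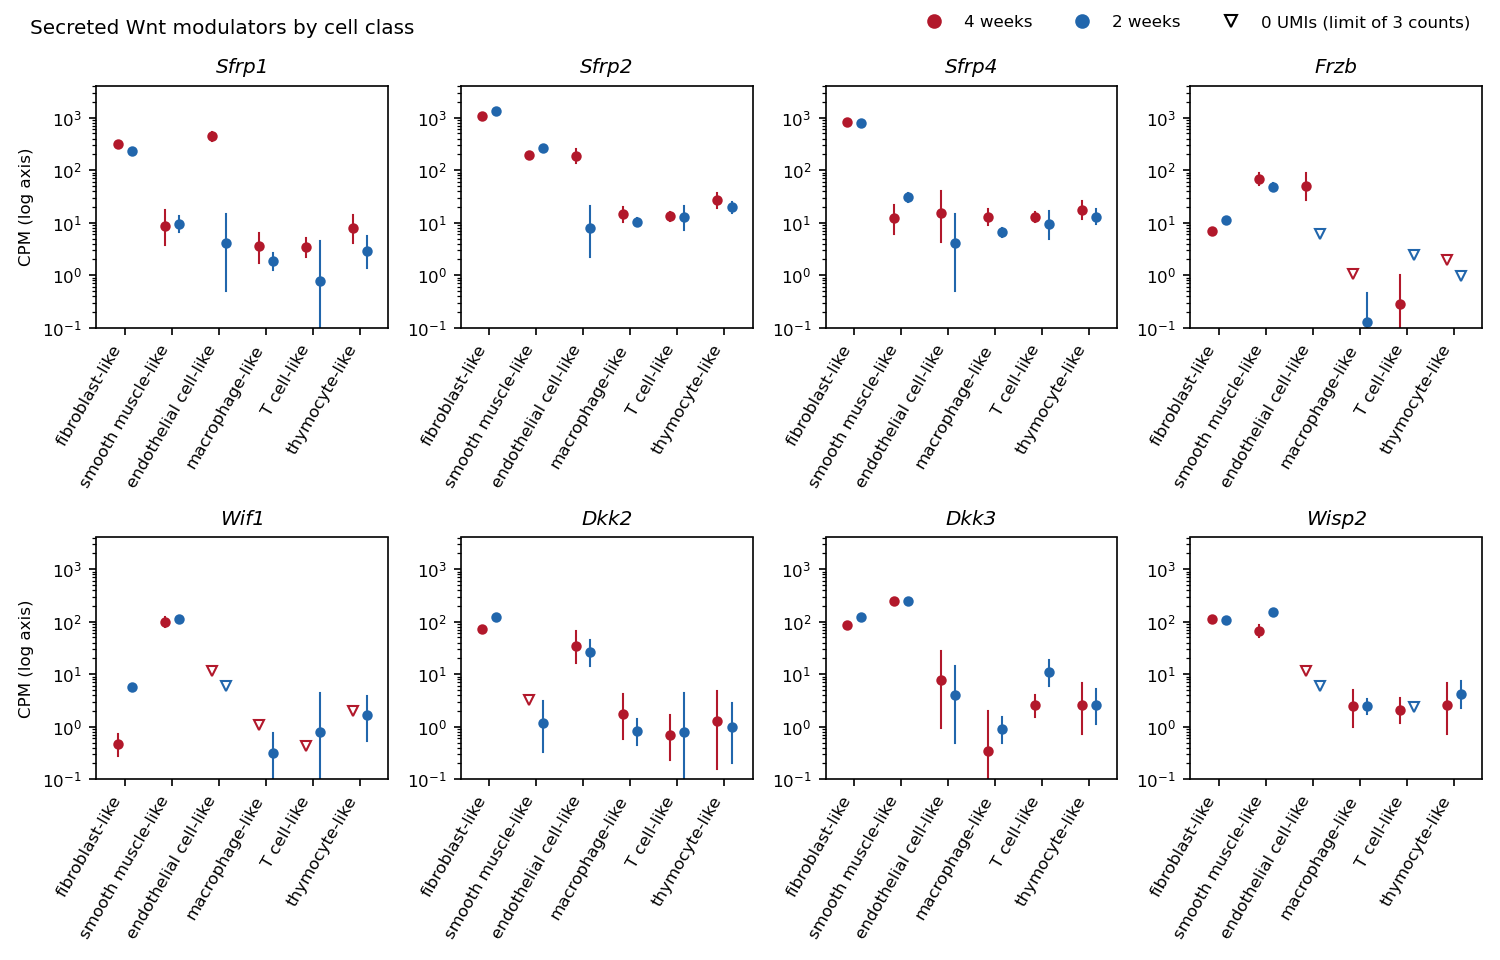
Level of each gene in CPM (log axis) in 6 cell classes at 4 weeks (red, left) and 2 weeks (blue, right). Points are class sums of 1 library with exact Poisson intervals, and open triangles mark 0 UMIs at the level that 3 counts would give. Sfrp1, Sfrp2, Sfrp4 and Dkk2 are far higher in fibroblast-like than in smooth muscle cell-like cells, whereas Wif1 and Frzb are higher in smooth muscle cell-like cells. Endothelial cell-like cells number under 50 at either time. Their 4-week Sfrp1 level, 443 CPM on 26 cells, lies above the 312 CPM of fibroblast-like cells.

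Free RNA in droplets can give every class a few UMIs, so shares of cells with a UMI were set beside thymocyte-like cells, which should lack these genes. The source of the UMIs in thymocyte-like cells was not tested, and their share is called the background here. Each cell with at least 2700 UMIs was thinned to 2700 UMIs, and shallower cells were left out of these shares. The median depth of thymocyte-like cells before thinning was 2538 UMIs at 4 weeks and 3184.5 UMIs at 2 weeks. Most 4-week thymocyte-like cells were therefore left out. Sfrp2 was then found in 62.6% of 4-week and 64.3% of 2-week fibroblast-like cells (79.0% and 80.7% unthinned), against 6.56% and 4.27% of thymocyte-like cells. Sfrp4 was found in 48.6% of 4-week and 47.1% of 2-week fibroblast-like cells (72.4% and 76.1% unthinned), against 4.25% and 2.69% of thymocyte-like cells. For Sfrp1 the shares were 35.0% and 30.9% (56.7% and 57.6% unthinned), against 1.54% and 0.632%. All 3 thus stood well above the share in thymocyte-like cells. Dkk2 was found in 11.1% of 4-week and 16.7% of 2-week fibroblast-like cells (22.1% and 34.1% unthinned), against 0% and 0.316% of thymocyte-like cells. Dkk3 was found in 18.7% and 22.4% (45.7% and 65.0% unthinned), against 1.16% and 0.790%, and Wisp2 in 12.6% and 14.0% (23.8% and 29.8% unthinned), against 0% and 1.26%. Frzb reached 1.43% of 4-week and 2.67% of 2-week fibroblast-like cells (4.18% and 6.27% unthinned), with 0% of thymocyte-like cells at either time. Wif1 was found in 0.0978% of 4-week and 1.12% of 2-week fibroblast-like cells (0.402% and 2.72% unthinned), against 0% and 0.158%, so the 4-week share lies at the level of the background.

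Summed over all fibroblast-like cells, 1 of the 8 genes passed the call rule of at least 2-fold with an interval that excludes 0. Wif1 fell, and 0 genes rose. Of the 12725 genes that had 50 UMIs or more in fibroblast-like cells, 4.49% were called lower and 1.15% higher. The median log2 ratio of 4 weeks over 2 weeks was -0.39 for the 8 genes and -0.00 for all genes tested. At a fold of 1.5, Wif1, Dkk2 and Frzb were called lower (3 of 8, against 9.19% of all genes) and 0 were called higher (against 3.47%).

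Among the genes whose products bind Wnt ligands, Sfrp1 had 312 CPM at 4 weeks and 234 CPM at 2 weeks, a log2 ratio of 0.41 (0.37 to 0.46). Sfrp2 had 1084 CPM at 4 weeks and 1324 CPM at 2 weeks (log2 ratio -0.29, -0.31 to -0.27). For Sfrp4 the levels were 838 CPM at 4 weeks and 806 CPM at 2 weeks (log2 ratio 0.06, 0.03 to 0.08). These differences are small beside the 2-fold rule, although the counts behind them are large. Frzb had 6.84 CPM (276 UMIs) at 4 weeks and 11.1 CPM (296 UMIs) at 2 weeks, a log2 ratio of -0.70 (-0.94 to -0.46). Wif1 had 0.471 CPM (19 UMIs) at 4 weeks and 5.63 CPM (150 UMIs) at 2 weeks, a log2 ratio of -3.58 (-4.35 to -2.89). The Wif1 call rests on few molecules: 1 cell at 2 weeks held 72 of the 150 UMIs, and without it the log2 ratio was -2.64 (-3.44 to -1.90).

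Of the Dickkopf genes, Dkk2, which encodes a ligand of Lrp5 and Lrp6, had 72.2 CPM at 4 weeks and 125 CPM at 2 weeks (log2 ratio -0.80, -0.87 to -0.72). Dkk3, a divergent family member whose action on Wnt signalling depends on the setting, had 86.0 CPM at 4 weeks and 121 CPM at 2 weeks (log2 ratio -0.49, -0.56 to -0.43). Wisp2, also called CCN5, a matricellular protein known to restrain smooth muscle growth, had 113 CPM at 4 weeks and 109 CPM at 2 weeks (log2 ratio 0.05, -0.02 to 0.11). Both Dickkopf genes were thus lower at 4 weeks, and the interval of Wisp2 included 0.

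The fibroblast-like cells fell into 8 clusters, whose makeup differed between the times. Cluster 1 (led by Mrgprg, Krtdap and Chst1, with 6 of 6 markers of Pi16-high fibroblasts) held 36.5% of 4-week and 10.3% of 2-week fibroblast-like cells. Cluster 3 (Tmem178, Penk, Inmt; 5 of 6 markers of C7 and Inmt fibroblasts) held 27.3% and 16.6%, and cluster 7 (Cilp, Fgf9, Hmcn2; 3 of 5 markers of Thbs4 and Cilp fibroblasts) held 17.8% at 4 weeks and 4.62% at 2 weeks. These 3 clusters were the larger part at 4 weeks. Cluster 9 (Crabp2, Tnc, Ptn, with 5 of 6 markers of Cthrc1-high fibroblasts) held 3.87% at 4 weeks and 29.8% at 2 weeks. It also had 3 of 7 macrophage and 2 of 6 proliferating cell markers at least 2-fold above the other fibroblast-like clusters. The part of such RNA in its values was not tested. Cluster 11 (Krt25, Ptx3, Bmp3; 6 of 6 Pi16-high and 2 of 6 Cthrc1-high markers) held 4.61% and 23.3%. Cluster 19 (Cytl1, Smoc1, Lamc3) held 3.16% at 4 weeks and 10.1% at 2 weeks. Cluster 17 was shallow, with median depths of 2179 UMIs at 4 weeks and 1059 UMIs at 2 weeks, and cluster 26 (Apod, A2m, Gfra1) had 27 cells at 4 weeks and 17 at 2 weeks. Clusters 17 and 26 each had under 50 cells in at least 1 library and are left out of the ratios within clusters below, and the correlations use cluster 17 at 4 weeks (190 cells). Cluster 7 rests on 56 cells at 2 weeks.

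**Figure D2:**
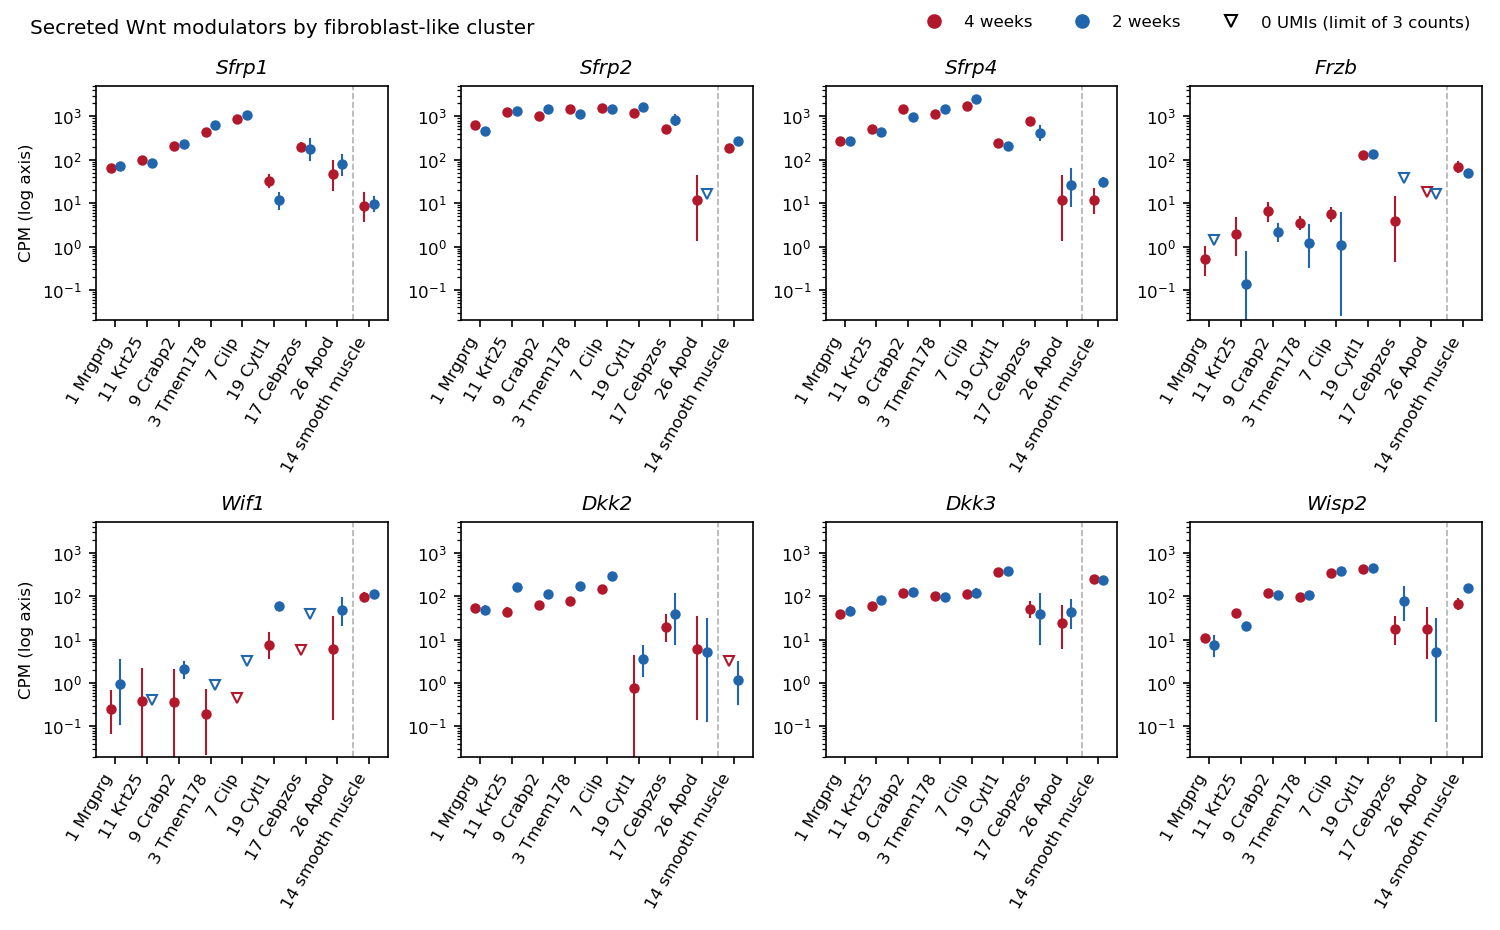
Level of each gene in CPM (log axis) in the 8 fibroblast-like clusters and, right of the dashed line, in smooth muscle cell-like cells, at 4 weeks (red, left) and 2 weeks (blue, right). Each cluster is named by its number and leading gene, points have exact Poisson intervals, and open triangles mark 0 UMIs at the level of 3 counts. Sfrp1, Sfrp4 and Dkk2 peak in cluster 7, and Frzb, Wif1, Dkk3 and Wisp2 in cluster 19.

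A total of 7 of the 8 genes had their highest level in the same fibroblast-like cluster at both times. Sfrp1, Sfrp4 and Dkk2 were highest in cluster 7, and Frzb, Wif1, Dkk3 and Wisp2 in cluster 19, where the 2-week place of Wif1 rests on 1 cell. Sfrp2 was the exception, highest in cluster 7 at 4 weeks and in cluster 19 at 2 weeks. At 2 weeks, however, 1 cell held 17.2% of the Sfrp2 UMIs of cluster 19. Clusters 9 and 7 lay close below it then, at 1496 and 1485 CPM, so this place may rest on that cell.

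Sfrp1 had 880 CPM in cluster 7 at 4 weeks and 1059 CPM at 2 weeks, and in cluster 3 it had 444 CPM at 4 weeks and 618 CPM at 2 weeks. It was far lower in cluster 1, at 65.7 CPM and 72.2 CPM, and lowest in cluster 19, at 32.4 CPM at 4 weeks (42 UMIs) and 11.6 CPM at 2 weeks (23 UMIs). Within clusters the log2 ratio was below 0 in cluster 3 (-0.48, -0.56 to -0.40), cluster 7 (-0.27, -0.36 to -0.17) and cluster 9 (-0.15, -0.29 to -0.02). It was above 0 in cluster 19 (1.48, 0.72 to 2.28), and the intervals of clusters 1 and 11 included 0. The pooled difference of Sfrp1 therefore had the opposite sign to that in its 2 highest clusters. In the ratios with makeup moved or held, here and below, makeup is each cluster's share of the fibroblast-like UMIs, not of the cells. With the 2-week levels kept and only the makeup moved to that of 4 weeks, the log2 ratio was 0.74. With the makeup held at that of 2 weeks it was -0.22, and with all clusters weighted equally -0.24. Without cluster 7 it was -0.048.

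Sfrp4 shared its highest cluster with Sfrp1, but not the order of the others at 4 weeks. Its level in cluster 7 was 1707 CPM at 4 weeks and 2453 CPM at 2 weeks (log2 ratio -0.52, -0.59 to -0.46), and in cluster 3 it was 1132 CPM and 1484 CPM (-0.39, -0.44 to -0.34). In cluster 9 the ratio ran the other way, with 1513 CPM at 4 weeks and 949 CPM at 2 weeks (0.67, 0.62 to 0.72). Cluster 11 had 508 CPM at 4 weeks and 432 CPM at 2 weeks (0.23, 0.14 to 0.33), and cluster 19 had 244 CPM and 203 CPM (0.27, 0.05 to 0.48). The near-zero pooled ratio of Sfrp4 thus holds differences of both signs, and it was -0.17 without cluster 7, -0.14 without cluster 11 and -0.022 with clusters weighted equally.

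Sfrp2 was the most evenly spread of the 3. In clusters 3, 7, 9, 11 and 19 it ranged between 1003 CPM and 1562 CPM at 4 weeks and between 1148 CPM and 1613 CPM at 2 weeks, and in cluster 1 it had 629 CPM and 464 CPM. Its log2 ratio was above 0 in cluster 1 (0.44, 0.34 to 0.53) and cluster 3 (0.35, 0.30 to 0.40). It was below 0 in cluster 9 (-0.58, -0.64 to -0.52), cluster 19 (-0.45, -0.53 to -0.36) and, slightly, cluster 11 (-0.06, -0.12 to -0.0060). In cluster 19, 1 cell held 552 of the 3201 UMIs of Sfrp2 at 2 weeks. Cluster 26 had 2 UMIs of Sfrp2 at 4 weeks and 0 at 2 weeks.

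Dkk2 differed between the times within most clusters. In cluster 11 it had 43.6 CPM at 4 weeks and 161 CPM at 2 weeks (log2 ratio -1.89, -2.18 to -1.61), and in cluster 3 it had 75.9 CPM and 171 CPM (-1.17, -1.33 to -1.01). Cluster 7 had 144 CPM at 4 weeks and 296 CPM at 2 weeks (-1.03, -1.23 to -0.83), and cluster 9 had 63.0 CPM and 112 CPM (-0.83, -1.07 to -0.60). Dkk2 was therefore lower at 4 weeks in 4 of the 6 clusters with at least 50 cells at both times. Cluster 1, the largest at 4 weeks, had 53.3 CPM at 4 weeks and 48.9 CPM at 2 weeks. Its interval included 0 (0.12, -0.17 to 0.43), but 1 cell held 38 of its 105 UMIs at 2 weeks. At 2 weeks 1 cell also held 97 of the 557 UMIs of cluster 3, and 1 cell held 33 of the 276 UMIs of cluster 7. In clusters 9 and 11 the top cell held 3.26% of the 2-week UMIs. The ratios of clusters 1, 3 and 7 without these cells were not computed, and those of clusters 3 and 7 lie close to 2-fold. Cluster 19 had 1 UMI of Dkk2 at 4 weeks and 7 UMIs at 2 weeks. With the makeup held at that of 2 weeks the log2 ratio of Dkk2 was -1.16, and with the 2-week levels kept and only the makeup moved it was 0.07. With clusters weighted equally it was -1.04 and without cluster 7 it was -1.05. Without cluster 7, 2 of the 8 genes, Wif1 and Dkk2, were called lower. With equal weights the same 2 genes were past 2-fold lower, but no interval was computed there.

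**Figure D3:**
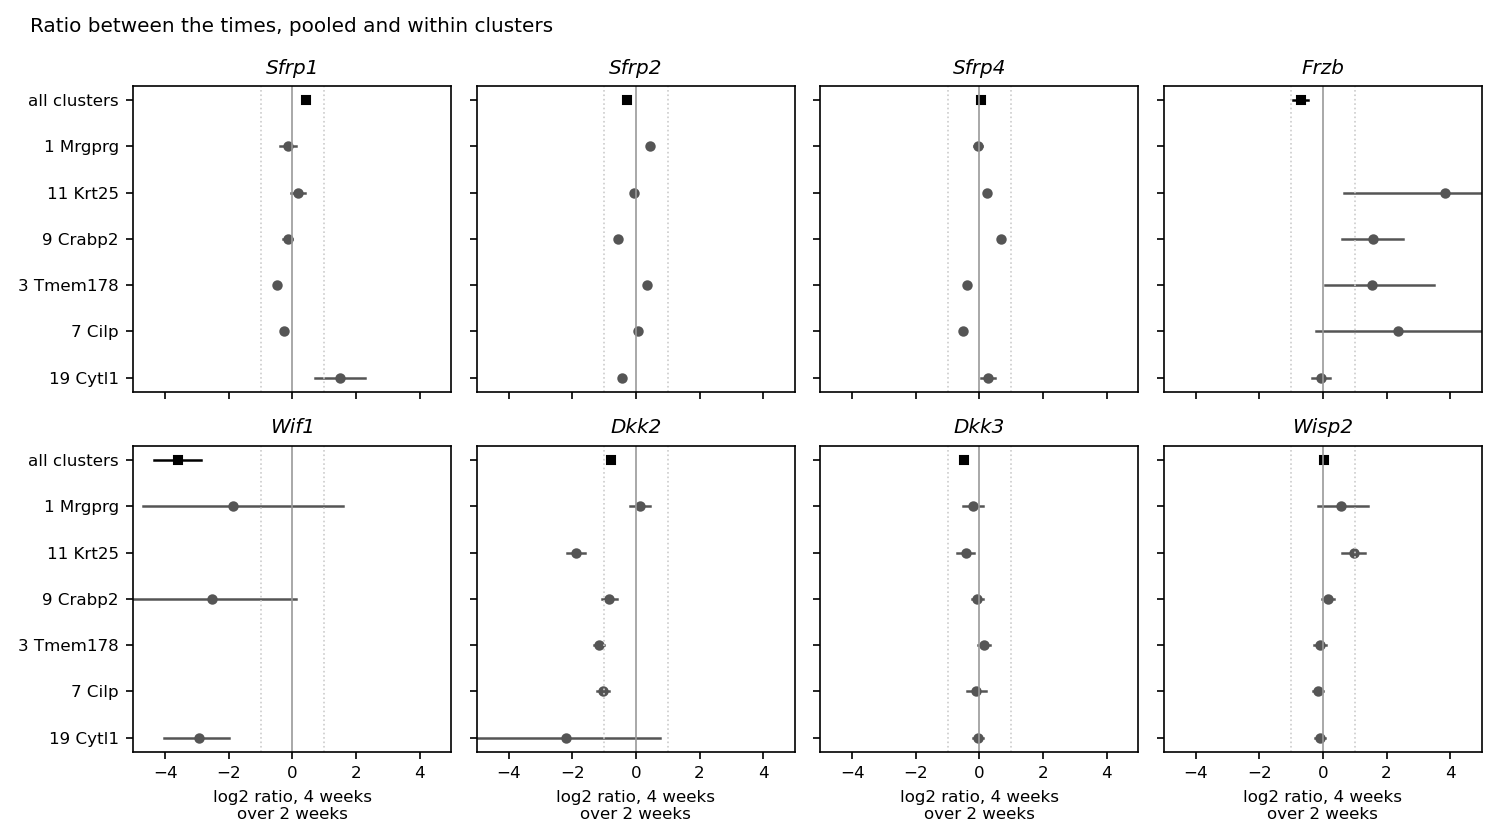
Log2 ratio of the CPM values, 4 weeks over 2 weeks, for all fibroblast-like clusters (squares, top row) and within the 6 clusters with at least 50 cells at both times (circles), with exact conditional intervals clipped at the axis ends; a cluster with 0 UMIs at either time has no point. Dotted lines mark 2-fold. Dkk2 lies left of 0 in clusters 11, 9, 3 and 7, and for Dkk3 the interval lies off 0 in cluster 11 (-0.43) and includes 0 in the other 5 clusters.

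Dkk3 and Wisp2 shared their highest cluster. Dkk3 had 366 CPM in cluster 19 at 4 weeks and 377 CPM at 2 weeks, and between 39.3 CPM and 120 CPM in the other compared clusters at 4 weeks, against 45.7 CPM to 126 CPM at 2 weeks. Its interval excluded 0 in cluster 11 alone (-0.43, -0.70 to -0.18). With the makeup held at that of 2 weeks its log2 ratio was -0.11, and with only the makeup moved it was -0.44, beside the pooled value of -0.49. Wisp2 had 434 CPM in cluster 19 at 4 weeks and 459 CPM at 2 weeks, and in cluster 7 it had 348 CPM and 385 CPM. Its level in cluster 1 was 11.1 CPM at 4 weeks and 7.46 CPM at 2 weeks. Cluster 11 was the exception among its ratios, with 40.1 CPM at 4 weeks and 20.5 CPM at 2 weeks (0.97, 0.59 to 1.34).

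Frzb, a Frizzled-related protein first known from cartilage, was concentrated in cluster 19. That cluster held 61.2% of the 4-week and 90.2% of the 2-week Frzb UMIs in this class. Its level there was 130 CPM (169 UMIs) at 4 weeks and 135 CPM (267 UMIs) at 2 weeks, a log2 ratio of -0.05 (-0.33 to 0.24). Beside the pooled log2 ratio of -0.70, the value was -1.16 with only the makeup moved, 0.28 with the makeup held and 1.22 without cluster 19. Without cluster 9 or cluster 11 it was -1.31 and -1.09, and Frzb was then called lower beside Wif1. In clusters 3, 9 and 11 the log2 ratios of Frzb were 1.53, 1.58 and 3.84 with intervals above 0, on 37, 18 and 5 UMIs at 4 weeks and 4, 23 and 1 UMIs at 2 weeks. The value of cluster 11 rests on 1 cell, which held 4 of the 5 UMIs at 4 weeks.

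Wif1 was likewise highest in cluster 19 among fibroblast-like clusters, at 7.71 CPM (10 UMIs) at 4 weeks and 59.0 CPM (117 UMIs) at 2 weeks (log2 ratio -2.93, -4.03 to -2.00). The cell with 72 UMIs was in this cluster and had 0 UMIs of both Myh11, the smooth muscle myosin, and Pdgfra, a fibroblast receptor. Without it, cluster 19 had 22.9 CPM at 2 weeks and a log2 ratio of -1.57 (-2.72 to -0.56). Its 2-week level then lay below that of cluster 26, at 47.5 CPM on 9 UMIs, 8 of them in 1 cell, so the place of cluster 19 as highest for Wif1 at 2 weeks rests on 1 cell. The log2 ratio of Wif1 over fibroblast-like cells was -2.54 without cluster 19, -4.40 with thinned cells and -2.69 without doublet removal, but the rest of the call rule was not met and 0 genes were called lower.

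Cluster 19 carried markers of other cell types. Compared with the other fibroblast-like clusters, 6 of 8 smooth muscle and 5 of 6 pericyte markers were at least 2-fold higher, and 2 of 6 chondrocyte markers (Acan and Comp). The chondrocyte list summed to 919 CPM at 4 weeks and 722 CPM at 2 weeks in cluster 19, against 115 CPM and 111 CPM over all fibroblast-like cells. The summed level of the 8 smooth muscle markers was 2303 CPM at 4 weeks and 1952 CPM at 2 weeks in cluster 19, against 136 CPM and 357 CPM over all fibroblast-like cells. The 8 fibroblast markers summed to 25243 CPM at 4 weeks and 30806 CPM at 2 weeks there. Of its cells, 77 of 102 at 4 weeks and 93 of 123 at 2 weeks had a Pdgfra UMI, and 9 and 16 cells had a Myh11 UMI. The part of RNA of these cell types in the Frzb and Wif1 values of cluster 19 was not tested.

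**Figure D4:**
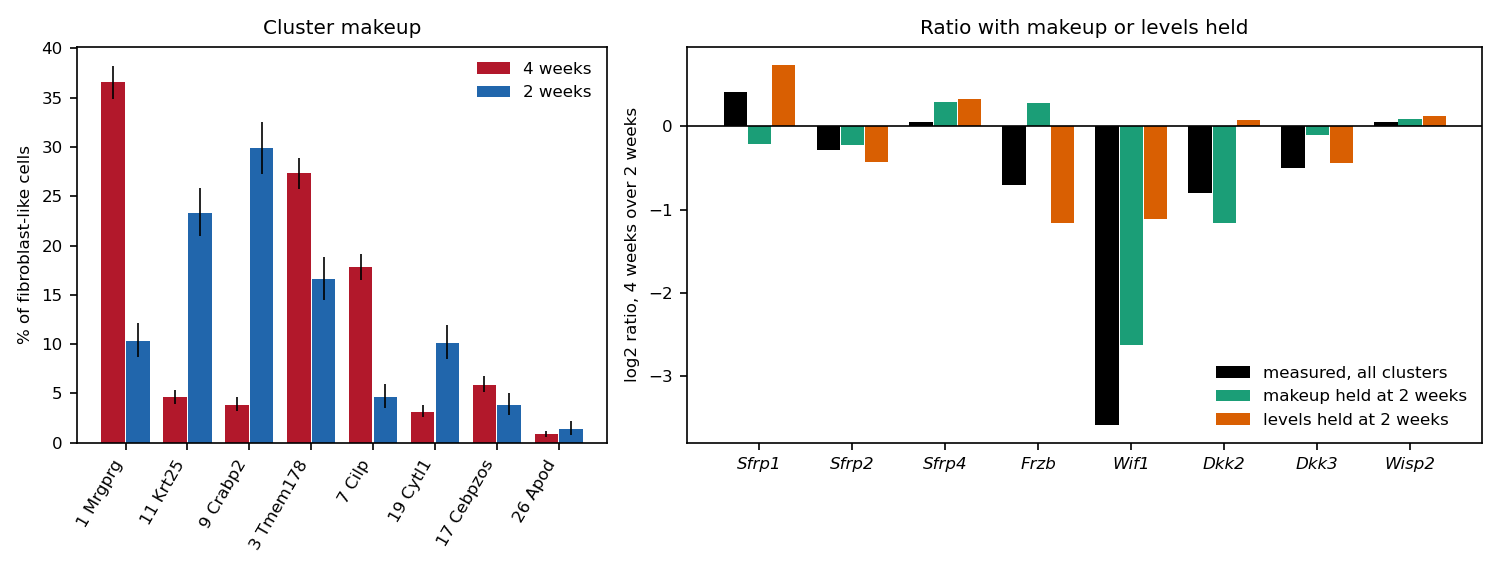
Left, share of fibroblast-like cells in each cluster (%) at 4 weeks (red, left) and 2 weeks (blue, right) with exact binomial intervals. Right, log2 ratio of 4 weeks over 2 weeks as measured (black), with the cluster makeup held at that of 2 weeks (green) and with the cluster levels held at those of 2 weeks (orange). The green and orange bars weight clusters by their share of UMIs, not of cells. For Dkk2 the bars are at -0.80 (black), -1.16 (green) and 0.07 (orange), and for Dkk3 at -0.49, -0.11 and -0.44.

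In smooth muscle cell-like cells Wif1 had 97.6 CPM (78.4 to 120) at 4 weeks and 114 CPM (103 to 126) at 2 weeks, a log2 ratio of -0.22 (-0.57 to 0.12). Frzb had 68.0 CPM at 4 weeks and 48.5 CPM at 2 weeks (0.49, 0.04 to 0.92), and Dkk3 had 248 CPM and 242 CPM (0.03, -0.19 to 0.25). Wif1 and Dkk3 thus had intervals that included 0 in the class where they were highest. Of the 6 genes that reached 50 UMIs in this class, Wisp2 and Sfrp4 were called lower and 0 were called higher, against 1.73% and 0.929% of 7748 genes. Wisp2 had 65.8 CPM at 4 weeks and 151 CPM at 2 weeks (-1.20, -1.61 to -0.81). Sfrp4 had 12.1 CPM (11 UMIs) at 4 weeks and 30.5 CPM (102 UMIs) at 2 weeks (-1.34, -2.39 to -0.44). Its level in thymocyte-like cells was 17.7 CPM at 4 weeks and 13.1 CPM at 2 weeks, so the 4-week level lies at the background. At 2 weeks 1 smooth muscle cell-like cell held 36 of the 102 Sfrp4 UMIs (35.3%). The ratio without that cell was not computed, so the Sfrp4 call may rest on it.

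Most fibroblast-like cells carried more than 1 of these transcripts. After thinning, 10.9% of 3069 cells at 4 weeks and 11.5% of 1159 cells at 2 weeks had a UMI of 0 of the 8 genes, and 29.9% and 24.0% had a UMI of 1. A UMI of 2 of the genes was found in 29.1% of cells at 4 weeks and 30.9% at 2 weeks, and of 3 genes in 20.0% and 22.5%. No cell had more than 6, and 1 cell at each time had 6.

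Pairs of genes were set beside the number of cells expected from the product of their shares. Sfrp1 and Dkk2 were found together in 165 cells at 4 weeks and 79 cells at 2 weeks, 1.38 and 1.32 times the product. Sfrp1 and Wisp2 were together in 203 cells at 4 weeks, where 135 were expected, and in 54 cells at 2 weeks, 1.08 times the product. Sfrp4 and Wisp2 reached 1.32 and 1.26 times. Dkk2 and Dkk3 were found together less often than the product, at 0.74 times (47 cells) and 0.80 times (35 cells). Frzb and Dkk3 reached 2.19 times at 4 weeks and 2.16 times at 2 weeks, on 18 and 15 cells, and Frzb and Dkk2 were together in 2 cells and 0 cells. Cells of a cluster share their levels, so these numbers describe the clusters as much as single cells.

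**Figure D5:**
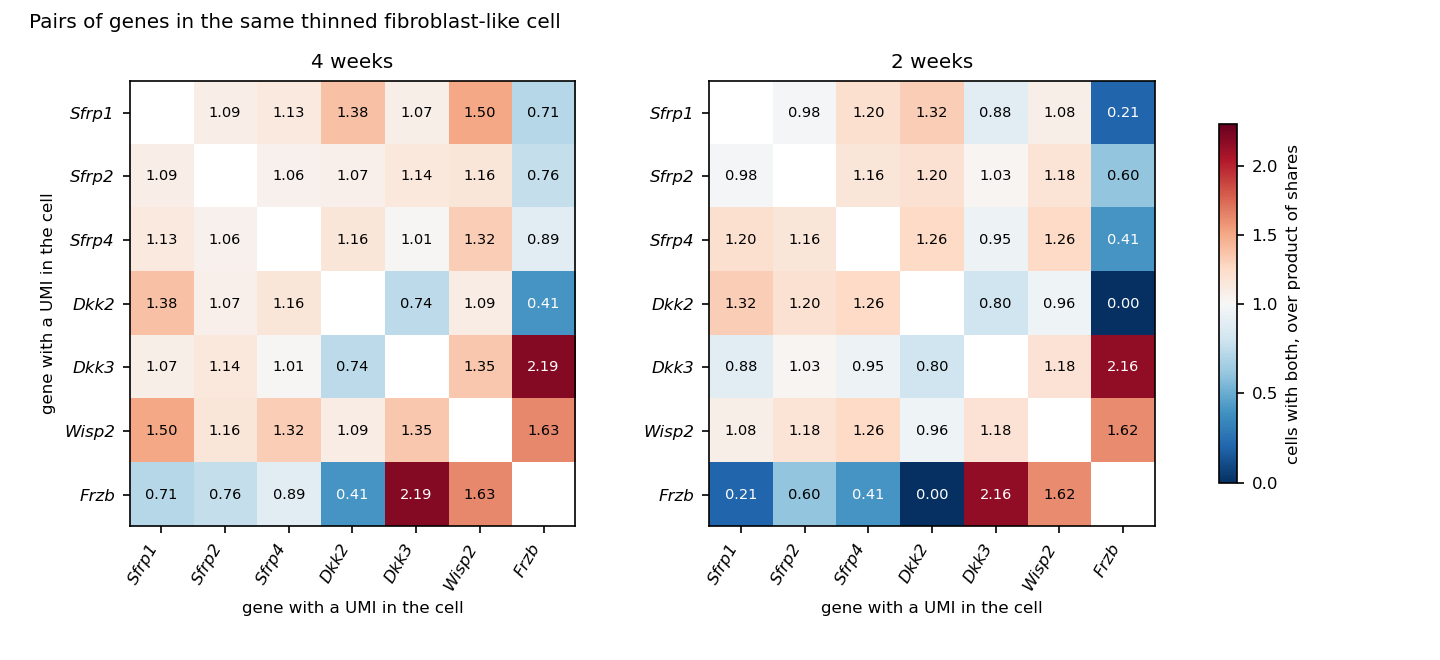
Number of thinned fibroblast-like cells with UMIs of both genes over the number expected from the product of their shares, at 4 weeks (left, 3069 cells) and 2 weeks (right, 1159 cells), for 7 genes. Red is above 1 and blue below 1. Frzb with Dkk3 (2.19 at 4 weeks and 2.16 at 2 weeks) is above 1, and Frzb with Dkk2 (0.41 and 0.00) is below 1, on few cells. Wif1, found in 3 and 13 cells, is left out.

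Over the 13 combinations of fibroblast-like cluster and library with at least 50 cells, which include the shallow cluster 17 at 4 weeks, the levels of Sfrp1 and Sfrp4 had a Pearson r of 0.95 on log2(CPM + 10), and those of Dkk3 and Wisp2 0.87 and Frzb and Dkk3 0.87. Frzb and Dkk2 had an r of -0.79. Of 3932 genes compared, those most like Sfrp1 were Angptl1 (r 0.94), Hmcn2 (0.93) and Fgf7 (0.92), and those most like Sfrp4 were Angptl1 (0.95), Acp5 (0.93) and Cxcl14 (0.92). Those most like Sfrp2 were Atp1b1 (0.94), Sgk1 (0.88) and Igf1 (0.86). The genes most like Frzb were Smoc1 (0.99), Hspb7 (0.99) and Lmcd1 (0.98), for Dkk2 they were Nbl1 (0.95), Shox2 (0.94) and Arhgap21 (0.92), for Dkk3 Nudt4 (0.97), Gxylt2 (0.96) and Lhfp (0.96), and for Wisp2 Scarf2 (0.96), Cd81 (0.95) and Ltbp3 (0.95). These points share 2 libraries and their depth, and the values are a description. Outside cluster 19 Frzb was at most 6.45 CPM at 4 weeks and 2.16 CPM at 2 weeks, below the 10 added to the CPM. All r values of Frzb thus mainly set cluster 19 against levels near the floor.

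The other genes of the Wnt pathway were read in the same fibroblast-like cells. Of 86 genes on 8 lists, 64 had at least 50 UMIs, of which 9 fell by the call rule and 0 rose, against 4.49% lower and 1.15% higher of all genes. The median log2 ratio of the 64 was -0.07, against -0.00 for all genes. Among ligands, Wnt4 (-1.45) and Wnt16 (2.45 CPM at 4 weeks and 4.92 CPM at 2 weeks) fell, Wnt2 had 16.1 CPM at 4 weeks and 32.1 CPM at 2 weeks (-0.99, -1.14 to -0.84), and Wnt5a, a ligand of beta-catenin-independent signalling, had 88.5 CPM and 65.0 CPM (0.45, 0.36 to 0.53). Of the other 9 secreted antagonists 2 had at least 50 UMIs, and both fell: Sost (-2.11), on 72 UMIs at 4 weeks and 205 at 2 weeks, and Sfrp5 (-5.18), on 2 and 48 UMIs. Sost was highest in smooth muscle cell-like cells at both times, as were Lgr6, Wnt16 (19.7 CPM at 4 weeks and 44.6 CPM at 2 weeks), Nov (696 CPM and 687 CPM) and Wif1, and the summed smooth muscle markers of fibroblast-like cells were lower at 4 weeks (136 CPM, against 357 CPM at 2 weeks). Their part in these ratios was not tested. Among receptors and R-spondin receptors, Ptk7 (-1.68) and Lgr6 (-1.81) fell, whereas the co-receptor Lrp6 had 113 CPM at 4 weeks and 95.6 CPM at 2 weeks (0.24, 0.17 to 0.31). Of 15 intracellular genes Tcf7 fell (-1.07), a gene at 1834 CPM at 4 weeks and 1963 CPM at 2 weeks in thymocyte-like cells.

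Of the 8 beta-catenin target genes with at least 50 UMIs, 4 had an interval below 0, 1 had an interval above 0 and the median log2 ratio was -0.22. Axin2, a feedback inhibitor read as a sign of the pathway, had 9.20 CPM at 4 weeks and 8.89 CPM at 2 weeks (log2 ratio 0.05, -0.19 to 0.29), and Nkd2 had 10.8 CPM and 10.3 CPM (0.06, -0.16 to 0.29). Wisp1 alone fell by the call rule, at 17.2 CPM at 4 weeks and 46.4 CPM at 2 weeks (-1.43, -1.57 to -1.30). Myc had 25.7 CPM at 4 weeks and 47.8 CPM at 2 weeks (-0.90, -1.01 to -0.78), and Ccnd1 had 15.8 CPM and 24.6 CPM (-0.63, -0.79 to -0.47). Bambi had a log2 ratio of -0.25 (-0.42 to -0.07), and Twist1 was the gene above 0 (0.10, 0.03 to 0.17). In the CCN family, to which Wisp2 belongs, Nov fell as well, at 77.5 CPM at 4 weeks and 175 CPM at 2 weeks (-1.18, -1.24 to -1.11), and Cyr61 had 253 CPM and 404 CPM (-0.68, -0.72 to -0.64). The pathway's count of genes that fell was 4 with thinned cells and 5 without cluster 9.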

How the data were processed

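The authors deposited raw UMI counts for each gene in each barcode. Per the file headers they come from Cell Ranger 4.0.0, and the submitters' processing notes name the build mm10. The listed barcodes began at 501 UMIs at 4 weeks and 500 at 2 weeks, so emptier barcodes had been removed by the authors before deposit. Filters kept cells having 300 or more genes, 500 or more UMIs and no more than 10% mitochondrial UMIs. The highest Scrublet doublet scores were removed at 0.8% per 1000 barcodes. These steps took out 73 shallow, 483 mitochondrial and 587 doublet barcodes at 4 weeks, and 54, 383 and 275 at 2 weeks.

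Both libraries were clustered together (Python 3.11.15, scanpy 1.11.5, scipy 1.17.1, leidenalg 0.10.2) on 2000 variable genes without the Wnt genes, with 30 components, 15 neighbours, Leiden resolution 1 and seed 1, and without batch correction. A cluster was named where at least 3 markers and 50% of a class list were at 2 or more times the mean of other clusters and in at least 10% of its cells, with a lead of 10 points over other classes and no more markers of another class among its top 10 genes. Fibroblast subset markers counted as fibroblast markers, and the lead was not asked of thymocytes. Clusters failing this stayed numbered. This scoring rule was set after the data were seen, and the genes and lists were chosen with earlier results of these data known.

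UMIs were summed per library and class, scaled to CPM with exact Poisson intervals, and compared as log2 ratios with exact conditional binomial intervals. Shares have Clopper-Pearson intervals. A gene was called at 2-fold or more with an interval excluding 0 and at least 50 UMIs in the class. A count of 0 was read as allowing 3 counts. PCR and cell-to-cell spread are not in these intervals. Named are all 8 genes, of each other Wnt list those called and among the 4 with the largest ratios, and for each of the 8 genes with at least 200 UMIs the 3 most alike by Pearson r among genes with at least 200 UMIs and 50 CPM in 1 unit; Wnt5a, Lrp6, Axin2, Nkd1, Nkd2, Bambi, Twist1, the endothelial and fibroblast genes of the endothelial cell-like cells and the genes of cluster 19 were chosen after their values were seen. The steps were tested on simulated data. Alternatives changed the doublet, mitochondrial, clustering, scaling, thinning and fold settings.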

Additional observations from a re-analysis of the deposited data

Results flagged for a closer look

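The log2 ratio of 4 weeks over 2 weeks had opposite signs in different fibroblast-like clusters for 3 of the genes, with counting intervals that excluded 0 on both sides. Sfrp1 had a log2 ratio of 1.48 in cluster 19 (Cytl1, Smoc1, Lamc3) and -0.48 in cluster 3 (Tmem178, Penk, Inmt). Sfrp2 had 0.44 in cluster 1 (Mrgprg, Krtdap, Chst1) and -0.58 in cluster 9 (Crabp2, Tnc, Ptn). Sfrp4 had 0.67 in cluster 9 and -0.52 in cluster 7 (Cilp, Fgf9, Hmcn2). With 1 library per time the difference between clusters was not tested. The Sfrp1 value of cluster 19 rests on 42 UMIs at 4 weeks and 23 UMIs at 2 weeks.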

How the results depend on the processing

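Each gene's ratio in fibroblast-like cells was recomputed under 20 alternatives, of which the 8 that leave out 1 fibroblast-like cluster were added after seeing the data. Dkk2 (-1.05 to -0.59), Dkk3 (-0.65 to -0.08), Sfrp2 (-0.50 to -0.02) and Wif1 (-4.40 to -2.54) kept their direction in all 20, while Wisp2, whose interval included 0, ranged between -0.60 and 0.59. Frzb reversed to 0.84 without doublet removal, 1.39 with a mitochondrial limit of 5%, 0.13 with clusters weighted equally and 1.22 without cluster 19. Of the cells of cluster 19, 1.78% and 11.1% stayed in the class under the first and second of these settings. Sfrp4 reversed to -0.0079 with each library clustered on its own, -0.022 with equal weights, -0.17 without cluster 7 and -0.14 without cluster 11. Sfrp1 reversed to -0.24 with equal weights and -0.048 without cluster 7.

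The count of the 8 genes called lower, 1, became 0 without doublet removal, with thinned cells or without cluster 19. It became 2 with equal weights or without cluster 7, 9 or 11, and 3 at a fold of 1.5. The equal-weight count asked for the fold alone, as no interval was computed. The count called higher, 0, became 1 with the 5% limit or without cluster 19. For the other Wnt genes the count called lower, 9, became 17 at a fold of 1.5, 4 with thinned cells and 5 without cluster 9, and the count called higher, 0, became 1 without doublet removal and 2 at a fold of 1.5. Genes with the same highest cluster at both times, 7, became 3 without doublet removal or with the 5% limit. Genes highest in fibroblast-like cells at both times, 4, became 3 without doublet removal, with the 5% limit or with the 8 genes kept among the variable genes. In the 5 other joint clusterings, a check added after seeing the data, Dkk2 was lower in 4 of 6, 6 of 6, 6 of 9, 4 of 6 and 4 of 5 clusters compared. No paired analysis was possible because each time is 1 library. Depth limits Wif1, with 19 UMIs at 4 weeks, and Frzb outside cluster 19.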

Other observations

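Endothelial cell-like cells were few (26 at 4 weeks and 41 at 2 weeks) and are in no comparison above. Sfrp1 had 114 UMIs there at 4 weeks (443 CPM, 366 to 533) and 2 UMIs at 2 weeks (4.05 CPM, 0.491 to 14.6). At 4 weeks 11 of the 26 cells held these UMIs, and 1 cell held 28.9% of them. The 11 cells had 525 CPM of Cdh5 and 2039 CPM of Pecam1, both endothelial junction genes, against 597 CPM and 1662 CPM in the 15 cells with no Sfrp1 UMI. They had 1227 CPM of Dcn and 186 CPM of Col1a1, both fibroblast genes, against 194 CPM and 43.2 CPM. Whether these cells held fibroblast RNA was not tested. Of the 48 Sfrp2 UMIs of endothelial cell-like cells at 4 weeks, 1 cell held 87.5%.

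Smooth muscle cell-like cells were the highest class for several other Wnt genes. Sost, a secreted antagonist known from bone, had 1103 CPM there at 4 weeks and 1230 CPM at 2 weeks, against 1.78 CPM and 7.69 CPM in fibroblast-like cells. Lgr6, an R-spondin receptor, had 196 CPM at 4 weeks and 161 CPM at 2 weeks in smooth muscle cell-like cells. Nkd1, an intracellular inhibitor, had 97.6 CPM and 88.0 CPM, and Nov 696 CPM and 687 CPM.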
